A study of Arabidopsis thaliana with 4 samples.

Results

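The LEA_4 family of late embryogenesis abundant (LEA) proteins was followed here through 10 of its genes in seeds of Arabidopsis thaliana, ecotype Columbia (Col 0). The genes were taken by locus code: LEA7 (AT1G52690), AT3G15670, ECP63 (AT2G36640), AT2G42560 (LEA25), AT5G44310, AT4G21020, AT3G17520, UNE15 (AT4G13560), AT1G72100 and AT3G02480. All 10 had a row among the 27416 listed genes. RNA-seq was done on whole seeds whose embryos had passed the mature green stage, from 2 biological replicates of the ddcc mutant and 2 of the wild type. The name ddcc stands for loss of DRM1, DRM2, CMT2 and CMT3, the enzymes that place most DNA methylation outside CG sites; the labels give the genotype by this name without its alleles. The question addressed is how seed transcripts at this stage differ without them.

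LEA_4 proteins are hydrophilic, contain many copies of a short repeated motif, are largely unfolded in solution and form helices as water is lost. They are known for protecting enzymes and membranes in drying tissue. Their transcripts accumulate late in seed maturation under the hormone abscisic acid, whose bZIP factors, ABI5 among them, bind abscisic acid response elements (ABREs), while ABI3, a B3-domain factor, binds RY elements.

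On listed genes, reads totalled 1122934 in the first ddcc library, 1166635 in the second, 3416071 in the first wild-type library and 1292023 in the second. Values below are the authors' normalised read counts, summarised as mean ± SD per genotype (n = 2), and they are not divided by gene length unless stated. DRM2 stood at 4.85 and 8.33 in ddcc libraries, against 39.3 and 39.6 in wild-type libraries. The source name of wild-type replicate 2 reads ddcc, against its other labels; its DRM2 level lay with the other wild-type library. DRM1 had 0 reads, and CMT2 and CMT3 had few reads in both genotypes. All 10 embryo maturation markers (storage proteins and oleosins) were present, with sums of 82493 and 97173 in ddcc, against 132894 and 122264 in wild type. The totals of these values over all genes were also lower in ddcc (1.33e6 and 1.41e6) than in wild type (1.82e6 and 1.71e6). As shares of reads the embryo markers took 6.22% and 6.89% in ddcc, against 7.32% and 7.17% in wild type. Seed coat markers summed to 591 and 590.1 in ddcc, against 549 and 454 in wild type, with BAN at 0. Most of this was ARA12, with 472 and 478 in ddcc, against 430 and 406 in wild type. Of 5 tested seed coat markers, 3 had a positive and 2 a negative log2 fold change. TT12 was lower in ddcc, with 26.0 and 26.6, against 37.0 and 29.3 in wild type. TT10 had 82.4 and 65.6 in ddcc, against 61.4 and 6.78 in wild type. Endosperm markers summed to 23686 and 32223 in ddcc, against 13987 and 15749 in wild type, nearly all of it EPR1, with ZOU (AT1G49770), ALE1 and PHE1 at 0. EPR1 was not called (limma adjusted p = 0.15). FIS2 went the other way, with 4.65 and 2.52 in ddcc, against 10.4 and 13.0 in wild type. Of 4 tested endosperm markers, 2 had a positive and 2 a negative log2 fold change. Silique wall markers summed to between 8.29 and 16.8 in every library, with FUL, SHP2 and IND at 0. Among the embryo markers 9 had a negative log2 fold change, while that of SESA2 was 1.04. The part of these differences in embryo and endosperm marker sums in the LEA_4 results was not tested. In such bulk samples fewer cells of a type and less RNA per cell cannot be told apart.

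LEA_4 transcripts were abundant in both genotypes. Together they took 3.94% of reads in ddcc replicate 1 (Wilson 95% interval 3.90 to 3.97), 4.20% in ddcc replicate 2 (4.16 to 4.24), 5.05% in wild-type replicate 1 (5.03 to 5.08) and 3.81% in wild-type replicate 2 (3.77 to 3.84). The intervals cover counting error only. The genotypes overlapped in this share, since both ddcc libraries lay between the wild-type libraries. The sum of the family's normalised read counts was 52179 and 59258 in ddcc, against 91716 and 64883 in wild type, so on the deposited scale both ddcc libraries lay below both wild-type libraries. Totals over all genes on that scale were lower in ddcc as well.

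Levels of different members were compared per length, as normalised read counts per kilobase of transcript. In ddcc the most abundant member was AT3G17520 with 10121 ± 275 per kilobase (SD, n = 2), followed by AT3G15670 with 9216 ± 2269 and AT5G44310 with 8861 ± 1292. In wild type the order of these was AT3G15670 with 16591 ± 6734, AT5G44310 with 12816 ± 4775 and AT3G17520 with 11720 ± 652. Among these 3, neighbours in either order had overlapping libraries. AT2G42560 (5441 ± 151 per kilobase in ddcc, 6341 ± 1247 in wild type) and AT4G21020 (4619 ± 341 in ddcc, 7687 ± 1632 in wild type) came next, apart from each other in ddcc and overlapping in wild type. These 5 members ranked between 9 and 23 in ddcc and between 8 and 27 in wild type among 26711 genes with a known transcript length. LEA7 had 1697 ± 32.2 per kilobase in ddcc and 3009 ± 290 in wild type. ECP63 had 1204 ± 20.6 in ddcc, against 1334 ± 185 in wild type, and AT1G72100 had 732 ± 30.8 in ddcc and 1425 ± 54.6 in wild type. ECP63 was above AT1G72100 in both ddcc libraries, whereas in wild type their libraries overlapped. AT3G02480 was far lower, at 251 ± 2.75 per kilobase in ddcc and 198 ± 47.5 in wild type. UNE15 had 1 read in ddcc and 1 in wild type, each from replicate 1, so no difference in UNE15 was detectable at this depth.

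**Figure D1:**
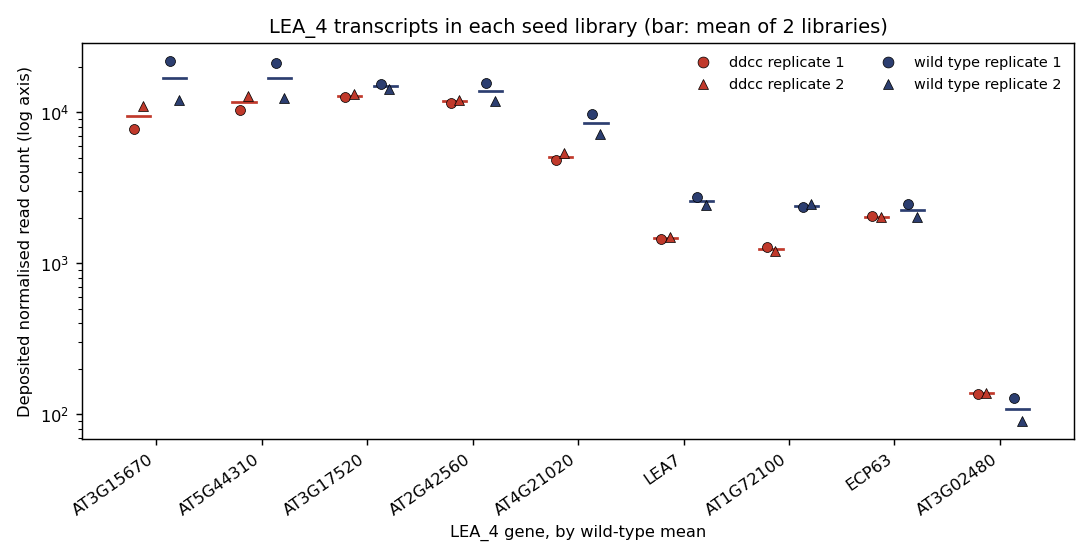
Deposited normalised read counts (log axis) of the 9 tested LEA_4 genes, with ddcc libraries in red to the left of wild-type libraries in blue; circles are replicate 1, triangles replicate 2 and bars the mean of 2 libraries. LEA7 and AT1G72100 separate by genotype with close replicates, while the wild-type replicates of AT3G15670 and AT5G44310 lie far apart.

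Upstream sequence was compared because abscisic acid factors act on LEA genes through it. The stretch of 250 bases before the annotated gene start was read for 9 members from the RefSeq TAIR10.1 genome. The ABRE core ACGTG (or CACGT on the other strand) was present in 8 of the 9, each with at least 2 separate sites, overlapping matches counted once. Among 26709 upstream stretches of the same length, 23.1% held a match and 5.07% at least 2. The G-box CACGTG, which contains the ABRE core on both strands, was present in 7 of 9 members and in 6.58% of all genes. The RY element CATGCA (or TGCATG) was present in 0 of 9 members and in 8.51% of all genes. UNE15, whose reads were near 0, had no match to any of these. A match describes the sequence only.

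The stretches of AT1G72100 and LEA7, which were called lower in ddcc, of the similar pair AT4G21020 and AT5G44310 and of the abundant, uncalled AT3G17520 are shown 5′ to 3′ on the strand of the gene, with ABRE cores in capitals. They lie at chr1:27126920-27127169 (plus strand) for AT1G72100, chr1:19619474-19619723 (plus) for LEA7, chr4:11227937-11228186 (plus) for AT4G21020, chr5:17849537-17849786 (minus) for AT5G44310 and chr3:6000448-6000697 (minus) for AT3G17520.
AT1G72100: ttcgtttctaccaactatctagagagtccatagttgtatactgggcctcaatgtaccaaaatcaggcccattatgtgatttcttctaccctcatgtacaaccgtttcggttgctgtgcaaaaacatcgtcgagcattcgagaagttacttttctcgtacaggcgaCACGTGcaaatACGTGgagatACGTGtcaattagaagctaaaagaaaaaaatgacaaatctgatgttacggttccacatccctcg
LEA7: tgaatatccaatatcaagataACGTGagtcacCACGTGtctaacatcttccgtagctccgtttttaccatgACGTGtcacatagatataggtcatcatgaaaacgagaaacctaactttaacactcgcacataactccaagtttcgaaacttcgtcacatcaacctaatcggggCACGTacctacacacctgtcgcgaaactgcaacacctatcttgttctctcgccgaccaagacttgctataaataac
AT4G21020: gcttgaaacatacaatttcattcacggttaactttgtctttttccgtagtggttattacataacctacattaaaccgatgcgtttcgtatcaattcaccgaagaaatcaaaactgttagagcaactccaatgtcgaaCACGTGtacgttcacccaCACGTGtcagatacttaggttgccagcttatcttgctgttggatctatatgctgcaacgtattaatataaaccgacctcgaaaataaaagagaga
AT5G44310: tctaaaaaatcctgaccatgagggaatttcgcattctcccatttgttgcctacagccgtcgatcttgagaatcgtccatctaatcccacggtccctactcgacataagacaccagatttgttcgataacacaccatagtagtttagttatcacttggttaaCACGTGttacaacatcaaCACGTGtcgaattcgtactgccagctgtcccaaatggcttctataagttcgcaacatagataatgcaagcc
AT3G17520: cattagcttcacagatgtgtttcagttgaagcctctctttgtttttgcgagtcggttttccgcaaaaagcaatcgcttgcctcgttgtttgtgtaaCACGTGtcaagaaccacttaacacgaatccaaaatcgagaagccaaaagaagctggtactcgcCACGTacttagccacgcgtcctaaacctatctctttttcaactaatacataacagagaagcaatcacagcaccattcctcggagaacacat
In AT1G72100 the 3 ABRE sites lie within a short cluster that begins at -85 and ends at -60, counted from the gene start. LEA7 has 4 sites spread from -229 to -72. In AT4G21020 and AT5G44310 both sites are G-boxes, starting at -113 and -95 in the first and at -89 and -71 in the second.

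**Figure D2:**
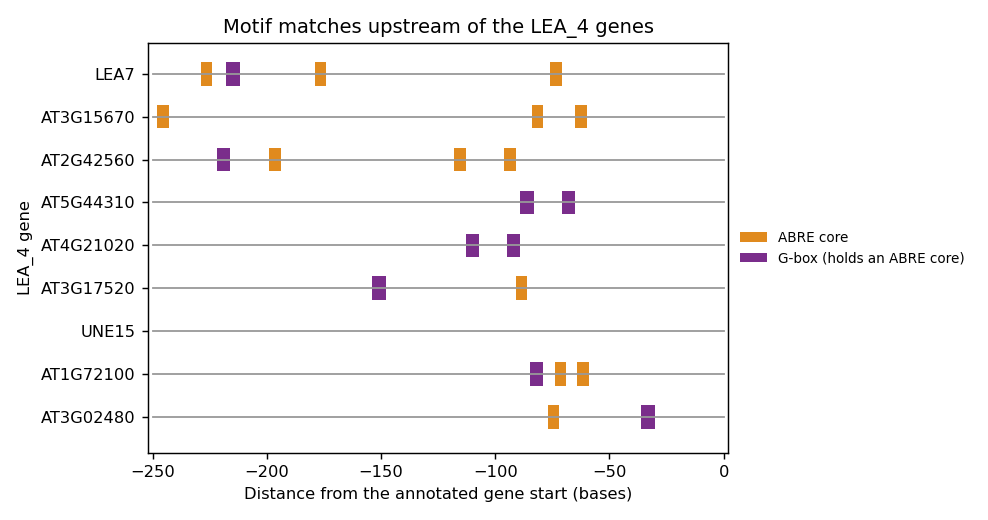
Positions of ABRE cores and G-boxes in the 250 bases before the annotated start of 9 LEA_4 genes (x axis, distance from the start in bases). Every gene shown but UNE15 holds at least 2 ABRE sites, and AT4G21020 and AT5G44310 hold a pair of G-boxes each.

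Of the 9 members abundant enough to be tested, AT1G72100 and LEA7 fell in ddcc and none rose. A gene was called at an adjusted p under 0.05 in limma with Benjamini-Hochberg adjustment over 15780 genes. Over all genes tested 6.48% were called, 3.45% lower and 3.03% higher, beside 2 of 9 members called lower and 0 called higher. The share called lower was larger among abundant genes. It was 31.7%, with a median log2 fold change of -0.65, at a mean of at least 1000 normalised read counts, where 8 of the 9 members lay. The groups did not overlap in 6 of the 9, with ddcc lower in 5 and higher in 1, where 51% of all genes tested did not overlap, 25.3% with ddcc lower and 25.7% with ddcc higher. Log2 fold changes were negative in 8 of 9 members, with a median of -0.49 beside 0.02 over all genes tested. The size of this median depended on scaling and on the wild-type libraries, and its sign turned after quantile normalisation. The members' median was 0.33 after quantile normalisation, -0.09 with equal nuclear totals (-0.47 relative to all genes), -0.15 without wild-type replicate 1 and -0.88 without wild-type replicate 2.

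AT1G72100, a LEA domain protein gene, had the largest change of the 9 on the deposited scale. Its ddcc libraries had 1273 and 1200 normalised read counts, against 2343 and 2473 in the wild-type libraries. The replicates of each genotype lay close together and the groups stood clearly apart. The means were 1237 ± 52 in ddcc and 2408 ± 92.2 in wild type (SD, n = 2 each). This was a log2 fold change of -0.96, with SE 0.23 and limma adjusted p = 0.0211, from 2071 reads in ddcc and 6286 in wild type. Leaving out wild-type replicate 1 kept the call (adjusted p = 0.0443), while it was lost on leaving out wild-type replicate 2 (0.0568) or a ddcc library (0.455 for the first, 0.489 for the second). With a ddcc library left out limma called 0 of all genes tested. At an unadjusted p under 0.05 there were then 771 higher and 906 lower genes without the first ddcc library, and 791 higher and 840 lower without the second.

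LEA7, whose product is known to stabilise enzymes during drying in vitro, had 1443 and 1483 in the ddcc libraries, against 2770 and 2417 in the wild-type libraries. Its log2 fold change was -0.82 (SE 0.23, limma adjusted p = 0.0479), from 2449 reads in ddcc and 7046 in wild type. This adjusted p stood just under the threshold. Leaving out any single library ended the call, but with a ddcc library left out no gene at all was called. The log2 fold change was -0.80 without the first and -0.84 without the second ddcc library. Without the first wild-type library it was -0.72 and without the second -0.92. The call was also lost with a pseudocount of 0.5 units (limma adjusted p = 0.0511). The upstream stretches of AT1G72100 and LEA7 hold ABRE cores, but so do those of every other tested member whose stretch was read, so these matches did not separate called from uncalled genes. LEA7 overlaps AT1G52695, which had 0 in both ddcc libraries, against 0.536 and 0.0241 in wild type.

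Both calls depended on scaling. With libraries scaled to equal totals over nuclear genes, the log2 fold change was -0.57 for AT1G72100 (limma adjusted p = 0.107) and -0.43 for LEA7 (0.221), while the median of all genes moved to 0.38 and 1.3% of genes were called lower. After quantile normalisation the values were -0.45 for AT1G72100 (0.231) and -0.29 for LEA7 (0.441), and 2.78% of genes were called lower. Both genes stayed negative under all 15 alternatives. The voom method in limma, run on the inferred whole reads, called AT1G72100 (adjusted p = 0.00613), LEA7 (0.0178) and AT4G21020, beside 3.97% of all genes called lower. With TMM factors, under which 3.99% of all genes were called lower, AT1G72100 and LEA7 were called.

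**Figure D3:**
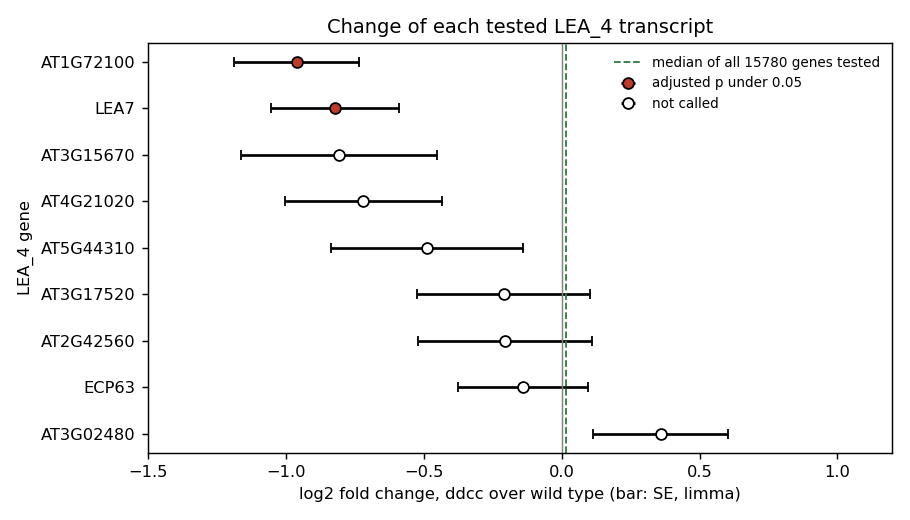
Log2 fold change of ddcc over wild type for the 9 tested LEA_4 genes, with limma standard errors as bars; filled points passed an adjusted p under 0.05 and the dashed line is the median of all genes tested. AT1G72100 at -0.96 and LEA7 at -0.82 are the called members, and AT3G02480 at 0.36 is the member with a positive value.

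AT3G15670 is the member most like LEA7 in sequence, with 80.8% identity over an aligned stretch of 193 bases of the transcripts. Over the longest aligned stretch, of 401 bases, identity was 67.6%. Its ddcc libraries had 7764 and 11037 normalised read counts, against 21780 and 12066 in the wild-type libraries. The groups did not overlap, but ddcc replicate 2 lay close to wild-type replicate 2. The log2 fold change was -0.81, much as for LEA7, yet its SE was 0.36 and it was not called (limma adjusted p = 0.206). Without wild-type replicate 1 the log2 fold change of AT3G15670 was -0.38 and without wild-type replicate 2 it was -1.23. It was -0.41 with equal nuclear totals and -0.07 after quantile normalisation. The ratio of LEA7 to AT3G15670 within a library was 0.186 and 0.134 in ddcc, against 0.127 and 0.200 in wild type, which overlapped fully.

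AT4G21020 and AT5G44310 form another similar pair, with 77.3% identity over 163 bases and 64.6% over the longest aligned stretch, of 574 bases. AT4G21020 had 4820 and 5351 in the ddcc libraries, against 9733 and 7192 in the wild-type libraries, without overlap. Its log2 fold change was -0.72 (SE 0.29, limma adjusted p = 0.16), and of the 15 alternatives only voom called it (adjusted p = 0.0454). With equal nuclear totals the log2 fold change of AT4G21020 was -0.33 (0.42) and after quantile normalisation -0.07 (0.888). AT5G44310 had 10435 and 12834 in the ddcc libraries, against 21260 and 12394 in the wild-type libraries. Here the groups overlapped, because ddcc replicate 2 exceeded wild-type replicate 2, and the gene was not called (log2 fold change -0.49, SE 0.35, adjusted p = 0.461). Its log2 fold change was 0.33 after quantile normalisation, -0.09 with equal nuclear totals, -0.10 without wild-type replicate 1 and -0.88 without wild-type replicate 2. Between the 2 wild-type libraries AT5G44310 differed 1.72-fold and AT3G15670 1.81-fold, against 1.08-fold for AT3G17520.

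ECP63, AT2G42560 and AT3G17520 showed little difference on the deposited scale. ECP63, named after a protein of embryogenic carrot cells, had 2063 and 2014 in the ddcc libraries, against 2480 and 2037 in the wild-type libraries. AT2G42560 had 11596 and 12059 in the ddcc libraries, against 15703 and 11869 in the wild-type libraries. In both genes a ddcc library exceeded a wild-type library. AT3G17520 had 12647 and 13142 in the ddcc libraries, against 15519 and 14344 in the wild-type libraries, so all values in ddcc were lower but by a small margin. The log2 fold change was -0.14 for ECP63 (limma adjusted p = 0.79), -0.21 for AT2G42560 (0.765) and -0.21 for AT3G17520 (0.758), each smaller than its SE. These signs turned with scaling. With equal nuclear totals the log2 fold change was 0.25 for ECP63, 0.19 for AT2G42560 and 0.18 for AT3G17520, and after quantile normalisation it was 0.46, 0.52 and 0.52 in the same order, again without a call.

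AT3G02480, the shortest member with a coding length of 207 bases, differed in sign from the rest. It had 136.9 and 139 in the ddcc libraries, against 127 and 90.4 in the wild-type libraries. Both ddcc libraries lay above both wild-type libraries, but the difference was not called (log2 fold change 0.36, SE 0.25, limma adjusted p = 0.439). Its sign was positive under all 15 alternatives, none of which called it. The log2 fold change was 0.11 without wild-type replicate 2 (adjusted p = 0.814), 0.60 without wild-type replicate 1 (0.178) and 0.75 with equal nuclear totals (0.0604).

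The members' shares of the family sum do not change when a whole library is multiplied by 1 factor, as in equal nuclear totals, but they can change under quantile normalisation, for which they were not computed. AT1G72100 made up 2.44% and 2.02% of the family's normalised read counts in the ddcc libraries, against 2.55% and 3.81% in the wild-type libraries. LEA7 made up 2.77% and 2.50% in ddcc, against 3.02% and 3.73% in wild type, and AT4G21020 9.24% and 9.03% in ddcc, against 10.6% and 11.1% in wild type. These 3 shares were lower in both ddcc libraries. Shares of AT2G42560 were higher in both ddcc libraries, at 22.2% and 20.4% in ddcc, against 17.1% and 18.3% in wild type. So were those of AT3G02480 (0.262% and 0.235% in ddcc, 0.139% and 0.139% in wild type) and ECP63. Those of AT3G17520 were higher too, at 24.2% and 22.18% in ddcc, against 16.9% and 22.11% in wild type. In AT3G17520 the share in ddcc replicate 2 thus lay barely above that in wild-type replicate 2. Shares of AT3G15670 (14.9% and 18.63% in ddcc, 23.7% and 18.596% in wild type) and of AT5G44310 overlapped between genotypes. The ratio of AT1G72100 to AT3G17520 was 0.101 and 0.0913 in ddcc, against 0.151 and 0.172 in wild type. For each share without overlap named here and for this ratio the two-sided exact permutation p was 0.333, the smallest that 2 against 2 libraries can give. Any 2 against 2 libraries without overlap give this value, so it adds nothing to the lack of overlap. For the share of AT3G15670 the permutation p was 0.667.

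**Figure D4:**
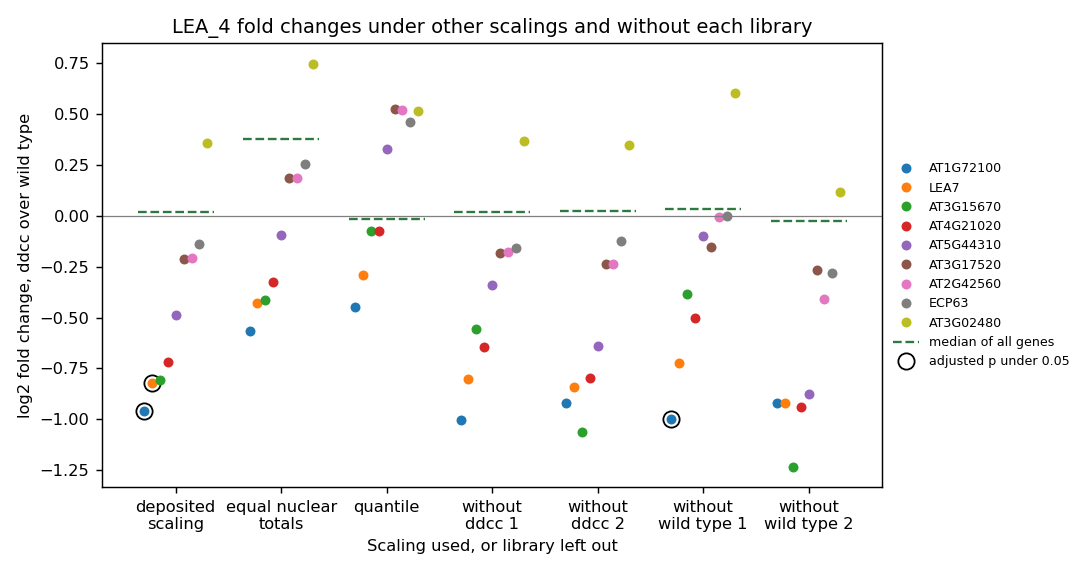
Log2 fold change of ddcc over wild type for the 9 tested LEA_4 genes under the deposited scaling, 2 other scalings and without each library; circled points passed an adjusted p under 0.05 and dashed lines are the median of all genes. AT1G72100 and LEA7 stay below 0 in every setting shown and AT3G02480 above it, while the whole set moves up after quantile normalisation.

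Abundance moved with the fold changes. Among the 161 tested genes with a mean of at least 1000 normalised read counts, the median log2 fold change was -0.65, 80.1% had a negative value and 31.7% were called lower in ddcc. The 8 LEA_4 members in this class had a median of -0.60, close to that of the class. In the class from 100 to 1000 the median was -0.21 over 2344 genes and 12.2% were called lower, and below 100 it was 0.07 over 13275 genes with 1.57% called lower. Of the 8 LEA_4 members in the class, 2 were called lower. The limits of these classes were chosen after the data were seen, and the part of abundance in the LEA_4 values was not tested.

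**Figure D5:**
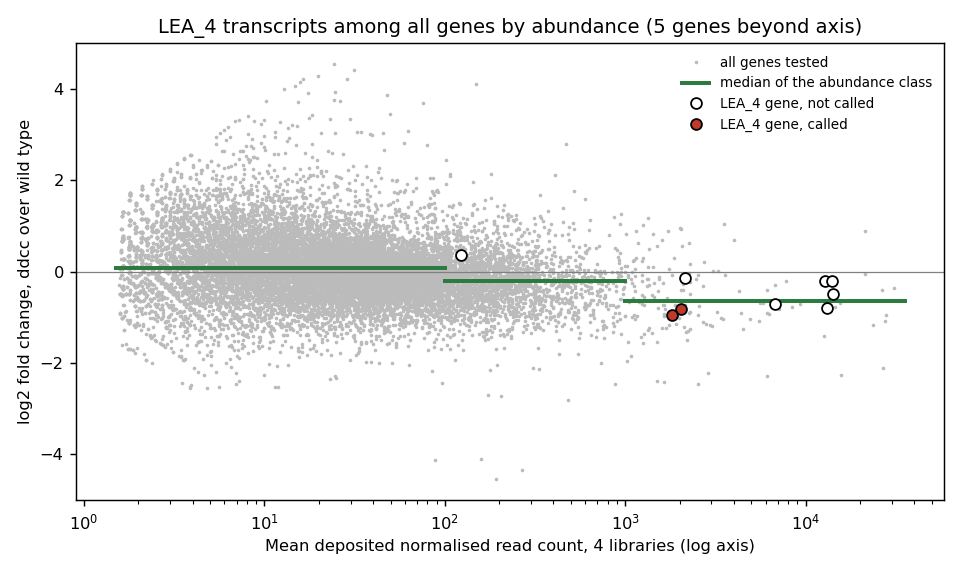
Mean normalised read count (log axis) against log2 fold change of ddcc over wild type for all 15780 genes tested (grey), with LEA_4 genes as circles, filled where called, and the median of 3 abundance classes in green; 5 genes lie beyond the axis. The 8 abundant LEA_4 genes lie around the median of -0.65 of their class.

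The gene models of the members carry few introns: 1 in 7 of them, 2 in AT3G02480 and UNE15, and 0 in AT3G17520. UNE15 has the longest annotated transcript of the members, 4151 bases for a coding length of 330. AT1G72100 spans 27127170 to 27128978 on chromosome 1 with a coding length of 1443 bases, and LEA7 spans 19619724 to 19621534 on the same chromosome with 510. The longest coding length is that of AT2G42560, with 1908 bases. None of the 9 tested members had a copy elsewhere in the genome with 95% identity or more across 100 bases or more, whereas UNE15 had 1 and overlaps AT4G06105 and AT4G06110, which were not used here.

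Of 8 other LEA_4 genes, 3 were tested and AT4G36600 fell, where 3.45% of all genes tested were called lower. In its abundance class, from 100 to 1000 normalised read counts, 12.2% were called lower. AT4G36600 had 491 and 452 in the ddcc libraries, against 1057 and 1055 in the wild-type libraries, a log2 difference of -1.16 (SE 0.21, limma adjusted p = 0.00555). This call held with the first or second wild-type library left out. It ended with the first or second ddcc library left out, as did the calls of all genes. The call of AT4G36600 was also kept with equal nuclear totals (0.0284) and after quantile normalisation (0.0285). AT3G53040 is the gene most like ECP63, with 74.8% identity over 615 bases and 67.5% over the longest aligned stretch, of 667 bases. It had 6028 ± 35.3 in ddcc, against 7415 ± 1229 in wild type and was not called (limma adjusted p = 0.61), nor was AT2G18340 (0.423). COR15A and COR15B, known for cold-induced proteins of the chloroplast stroma, and AT2G03740 and AT4G13230 had 0 reads in all 4 libraries.

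Of 32 genes of other LEA families, 28 were tested, of which 6 fell and 2 rose, with a median log2 fold change of -0.45. Over all genes tested 3.45% were called lower and 3.03% higher. The share called lower was 12.2% at a mean from 100 to 1000 normalised read counts and 31.7% at 1000 or more. The falls were those of M17 (log2 fold change -2.10, limma adjusted p = 0.00357), GEA6 (EM6; -1.40, 0.0152), ATECP31 (-1.24, 0.00495), AT3G22490, a seed maturation protein gene (-1.07, 0.0103), LEA14 (-0.87, 0.0312) and the dehydrin gene LTI30 (-0.81, 0.0465). The rises were those of the dehydrin gene AT1G54410, with 50.1 ± 5.69 in ddcc and 18 ± 7.88 in wild type (1.46, 0.0238), and of DI21, a drought-induced gene, with 164 ± 62.1 in ddcc and 67.3 ± 16 in wild type (1.24, 0.0204). None of the 8 was called with the first or second ddcc library left out, and nor was any other gene. Without wild-type replicate 1, AT3G22490 (0.0523), LTI30 (0.0822) and DI21 (0.16) were not called, and without wild-type replicate 2 this held for AT3G22490 (0.0663), LEA14 (0.128), LTI30 (0.181), AT1G54410 (0.146) and DI21 (0.0855). With equal nuclear totals AT3G22490 (0.0614), LEA14 (0.195) and LTI30 (0.246) were not called, and after quantile normalisation GEA6 (0.0948), LEA14 (0.0933) and LTI30 (0.155) were not.

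Among 15 tested regulators of seed maturation 2 were called higher and 1 lower, beside 3.03% higher and 3.45% lower over all genes tested. ABI5, the most abundant, had 1094 and 1243 in the ddcc libraries, against 2015 and 1448 in the wild-type libraries, and was not called (log2 fold change -0.55, limma adjusted p = 0.202). ABI3 was called higher (0.84, 0.0422), as was ABF1, a bZIP factor that binds ABREs, with 65.7 ± 1.1 in ddcc and 32 ± 2.19 in wild type (1.00, 0.0446). HSFA9, a heat shock factor gene active in seeds, was called lower (-0.95, 0.0314). Leaving out the first wild-type library gave adjusted p = 0.111 for ABI3, 0.0973 for ABF1 and 0.126 for HSFA9, and leaving out the second gave 0.155 for ABI3 and 0.136 for ABF1. HSFA9 was not called with equal nuclear totals (0.131) or after quantile normalisation (0.11). No regulator was called with the first or second ddcc library left out, and nor was any other gene.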

How the data were processed

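Gene-level RNA-seq values were analysed for 4 libraries, 2 of ddcc and 2 of wild type, grouped by their titles. Bowtie 0.12.7, edgeR 3.10.5 and the TAIR10 build were used by the authors per the submitters' processing notes; how reads were mapped and counted, and whether by strand, is not given in the sources used here. Each deposited value is a signal, a normalised read count per gene that the authors did not divide by length. Within a genotype the authors' values followed the library equalisation of edgeR. Inverting it, within a tolerance of 0.01, gave whole reads for 100% of value pairs with reads, and these served for depths, shares and voom. Both wild-type tables are headed replicate 2, yet their values differ.

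Log2 values were taken after adding 1 unit (1.56, the mean library total divided by 1e6), which understates changes of low genes. Limma 3.58.1 in R 4.3.3, with a variance trend, was fitted to genes averaging 1 unit or more, with Benjamini-Hochberg adjustment. Permutation tests used SciPy 1.17.1. The alternatives changed the pseudocount, the filter, the scaling, the variance model and the test, added a replicate block or left out each library. Limma p-values and SEs combine the spread of a gene between 2 replicates a genotype with the variance trend over all genes. They can therefore differ from the gene's own spread. For AT3G17520, replicate 1 minus replicate 2 was -0.06 log2 in ddcc and 0.11 in wild type, beside an SE of 0.31.

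Members and gene lists were chosen with earlier results of these data known. All members were named, with the 4 targeted genes, called genes of the LEA lists and, in other lists, the most abundant gene and the one with the smallest p; further genes named were chosen after their values were seen. The highest and smallest-p markers were SESA5 and OLEO2 (embryo), ARA12 and TT10 (seed coat), EPR1 and FIS2 (endosperm) and SHP1 and ALC (silique wall), of which OLEO2 was called (limma adjusted p = 0.0313). Coordinates, lengths and upstream sequence came from RefSeq TAIR10.1, in which 26719 listed loci and all 10 members had a row. The upstream stretch of 1 member is not reported here. Copies were searched with BLAST+ 2.17.0.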

Additional observations from a re-analysis of the deposited data

How the results depend on the processing

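Of 15 alternatives, 2 LEA_4 members were called lower with a pseudocount of 5 units, a filter at 5 units, TMM factors or robust moderation, and 3 with voom. With a pseudocount of 0.5 units or the replicate block 1 was called, and with no filter, quantile normalisation, equal nuclear totals or no trend 0 were, while at an unadjusted p under 0.05 there were 2 lower with no filter, 3 higher and 1 lower with quantile normalisation, 1 higher and 1 lower with equal nuclear totals and 2 lower without a trend. Leaving out 1 library gave 0 to 1 called members. Called genes overall numbered 336 with no filter, 1646 with equal nuclear totals (87.4% of them higher, against 46.7% on the deposited scale and 57.2% after quantile normalisation), 33 without a trend and 0 to 417 with 1 library left out, against 1023. Without a filter the higher share was 56.8%, and without a trend 97%. For the other LEA genes limma called 3 with no filter, 0 without a trend (unadjusted p under 0.05 in 4 higher and 8 lower) and 0 to 6 with 1 library left out, against 9.

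Signs reversed for ECP63 (AT2G36640) with quantile normalisation (0.46), equal nuclear totals (0.25) and without wild-type replicate 1 (6.26e-04; -0.28 to 6.26e-04 with 1 library left out), for AT2G42560 (quantile 0.52, nuclear 0.19), for AT3G17520 (quantile 0.52, nuclear 0.18) and for AT5G44310 with quantile normalisation (0.33). The members' median was 0.33 after quantile normalisation, -0.09 with equal nuclear totals (-0.47 relative to all genes) and -0.88 to -0.15 with 1 library left out. These causes were not tested. With the replicate block 1381 genes were called and AT1G72100 kept its call (adjusted p = 0.0337) while LEA7 (AT1G52690) did not (0.0958). Same-numbered libraries deviated with a correlation of -0.0455. With 2 libraries a genotype both replicate numbers give this same value by construction, so it cannot settle whether the numbers pair the samples. A lone library is assumed to vary like the other genotype's pair. With 2 libraries a genotype, adjusted p-values near 0.05 rest on little replication.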
